A study of Mus musculus with 16 samples.

Results

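The genes of the proteasome were described in erythroblasts of wild-type and Nprl3-deficient mouse foetal liver. They were the protein-coding genes of the count table whose symbols run from Psma to Psme followed by a number, without the immunoproteasome subunits Psmb8, Psmb9 and Psmb10, which gave 40 of 55416 genes. They encode 6 ATPases (Psmc), 11 other subunits (Psmd) and 3 assembly chaperones (Psmd5, Psmd9 and Psmd10) of the 19S cap, 8 alpha (Psma) and 8 beta (Psmb) subunits of the 20S core, and 4 activators (Psme1 to Psme4). Bulk RNA-seq had been done on erythroblasts of stages S1 and S3, which were sorted by Ter119 and CD71 out of 8 foetal livers at E13.5, with 1 library per liver and stage. The wild-type (WT) group held embryos 0, 1, 5 and 8, the heterozygous (Het) group embryos 3 and 4, and the knockout (KO) group embryos 2 and 9. The line had been backcrossed to C57BL/6 J. The KO carries a deletion of the Nprl3 promoter in every cell on both alleles and the Het on 1 allele, the alpha-globin enhancers near Nprl3 are left in place, and the homozygous deletion is lethal before birth. Per the titles, embryos 1, 2 and 5 were female and the others male, so that both Het embryos were male. The comparisons asked how the proteasome genes differed between the earlier stage S1 and the later stage S3, and whether loss of Nprl3, a subunit of the GATOR1 complex that restrains mTORC1, altered them.

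The 26S proteasome degrades proteins that carry ubiquitin chains. In its 20S core, rings of alpha subunits gate a chamber lined by rings of beta subunits, of which Psmb5, Psmb6 and Psmb7 carry the proteolytic sites, while the 19S cap binds, deubiquitinates, unfolds and threads the substrate through a ring of Psmc ATPases. Other caps open the core without ubiquitin, namely the PA28 alpha and beta heteromer (Psme1 and Psme2), which interferon induces together with the immunoproteasome, nuclear PA28 gamma (Psme3) and PA200 (Psme4). Erythroid cells remodel their proteome through this system as they condense their nuclei and fill with haemoglobin, and reticulocytes have long served as a source of the proteasome.

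The total count ran from 23331156 to 36035368 per library at S1 and from 20666044 to 37609502 at S3. Nprl3 had 13 and 32 counts in the KO S1 libraries and 881 to 1588 in WT S1. At S3 the KO libraries still held 1730 and 2069 counts over Nprl3, where WT had 2953 to 3883, so that the gene marked the KO clearly at S1 only. The paper states that spliced transcripts from the enhancers, which do not code for protein, confound the measurement of Nprl3 mRNA. Its PCR assay specific to promoter-derived transcripts detected no Nprl3 mRNA in knockout cells. The part of such transcripts in the S3 counts was not tested here. The labels' source field names an embryonic stem cell line, whereas globin genes took 10.0% to 11.8% of the counts at S3 and 0.0738% to 1.07% at S1. Summed neutrophil markers, which were 0.771 to 10.9 CPM (counts scaled to a common library total) at S3, varied from 175 to 1769 among the WT S1 libraries and were 1939 to 2316 in Het and KO S1. The S1 library of WT embryo 8 stood apart in the proteasome genes, and values without it are given where it changed them most.

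Of the 40 genes, 39 passed the filter on low counts in every comparison. Psmb11, the thymus-specific beta subunit, had 1 count in the S1 library and 1 in the S3 library of KO embryo 9 and 0 elsewhere. Levels of different genes were compared as length-scaled CPM, for which counts were divided by exon length and set to a common total in each library. At S1 the highest WT medians were those of Psmb2 (1479), Psmb5 (1359), Psma6 (1327) and Psma5 (1280). At S3 Psmb5 was highest with a median of 704, followed by Psme3 with 614 and Psmc5 with 542. The WT ranges of Psmb2 and Psmb5 overlapped at S1, and those of Psmb5 and Psme3 overlapped at S3. Among the genes tested, Psma8, the testis-type alpha subunit, and Psme4 were lowest, with medians of 20.7 and 11.3 at S1 and 2.24 and 12.3 at S3. The exon length was that of all annotated exons merged, so that a gene with long exons that these cells seldom use is placed too low on this scale.

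The proteasome genes took a smaller share of the transcripts at S3 than at S1. Their length-scaled counts made up 2.00% ± 0.207 of the library in WT S1 and 1.02% ± 0.0857 in WT S3 (SD, n = 4 each), with 1.70% in S1 of embryo 8 and 2.03% to 2.17% in the other 3. The lowest S1 library of any genotype had 1.70% and the highest S3 library 1.22%, so that the stages did not overlap. As plain counts without length scaling the shares were 1.69% ± 0.211 and 1.21% ± 0.109, and the S1 library of WT embryo 8 (1.38%) then lay just below the highest S3 library, that of KO embryo 2 (1.39%). Within a library, the summed level of the 20S genes stood at 1.41, 1.43 and 1.45 times that of the 19S genes without chaperones in S1 of WT embryos 0, 1 and 5. In their S3 libraries the ratio was 0.967, 1.08 and 1.10, and embryo 8 had 0.934 at S1 and 0.948 at S3. In Het and KO the ratio was 1.36 to 1.43 at S1 and 1.06 to 1.12 at S3. The ratio, which does not depend on the scaling of libraries, was lower at S3 in every embryo but WT embryo 8. Within the core, the summed alpha genes stood at 1.02 to 1.19 times the beta genes in all S1 libraries and at 0.913 to 1.000 times in all S3 libraries, without overlap. In bulk samples, fewer cells of a type and less RNA per cell cannot be told apart.

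**Figure D1:**
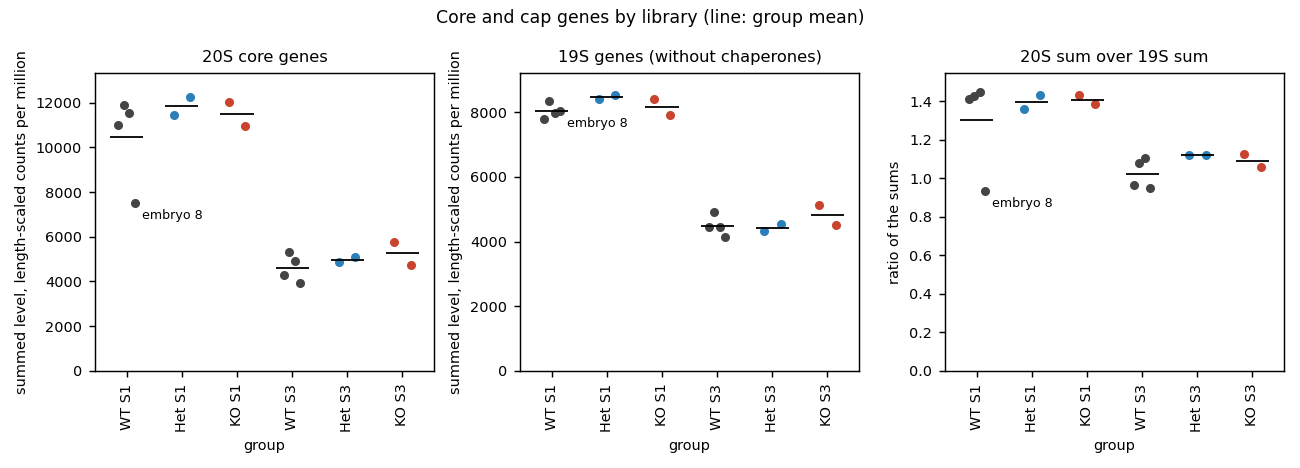
Summed length-scaled CPM of the 20S core genes (left) and of the 19S genes without chaperones (middle) and their ratio (right), 1 point per library, with the group mean as a line. All sums are lower at S3, and the ratio at S1 is near 1.4 except in WT embryo 8 with 0.934.

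Whether single genes were called higher or lower at S3 depended on the scaling. With TMM, which sets the scale by the bulk of genes, the median log2 fold change of S3 against S1 over the 13402 genes tested in WT was -0.16. Without TMM, on library totals alone, it was -1.16. Relative to that median the proteasome genes stood 0.64 higher with TMM and 0.69 higher without, and 34 of 39 lay above it either way. Without the S1 library of embryo 8 they stood 0.56 higher with TMM, and 29 lay above. With TMM, 22 of the 39 genes rose in WT where 30.9% of all genes tested did so, and 3 fell where 38.8% did (edgeR's quasi-likelihood F-test, p-values adjusted by the Benjamini-Hochberg method). On library totals the same test called 3 higher and 25 lower, where it called 14.3% and 66.6% of all genes. Psme3, Psme4 and Psmd10 were called higher and Psma8, Psmd7 and Psme1 lower on both scales. The other rises of proteasome genes named below for WT hold on the TMM scale, and on library totals those genes either did not pass the test or fell.

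**Figure D2:**
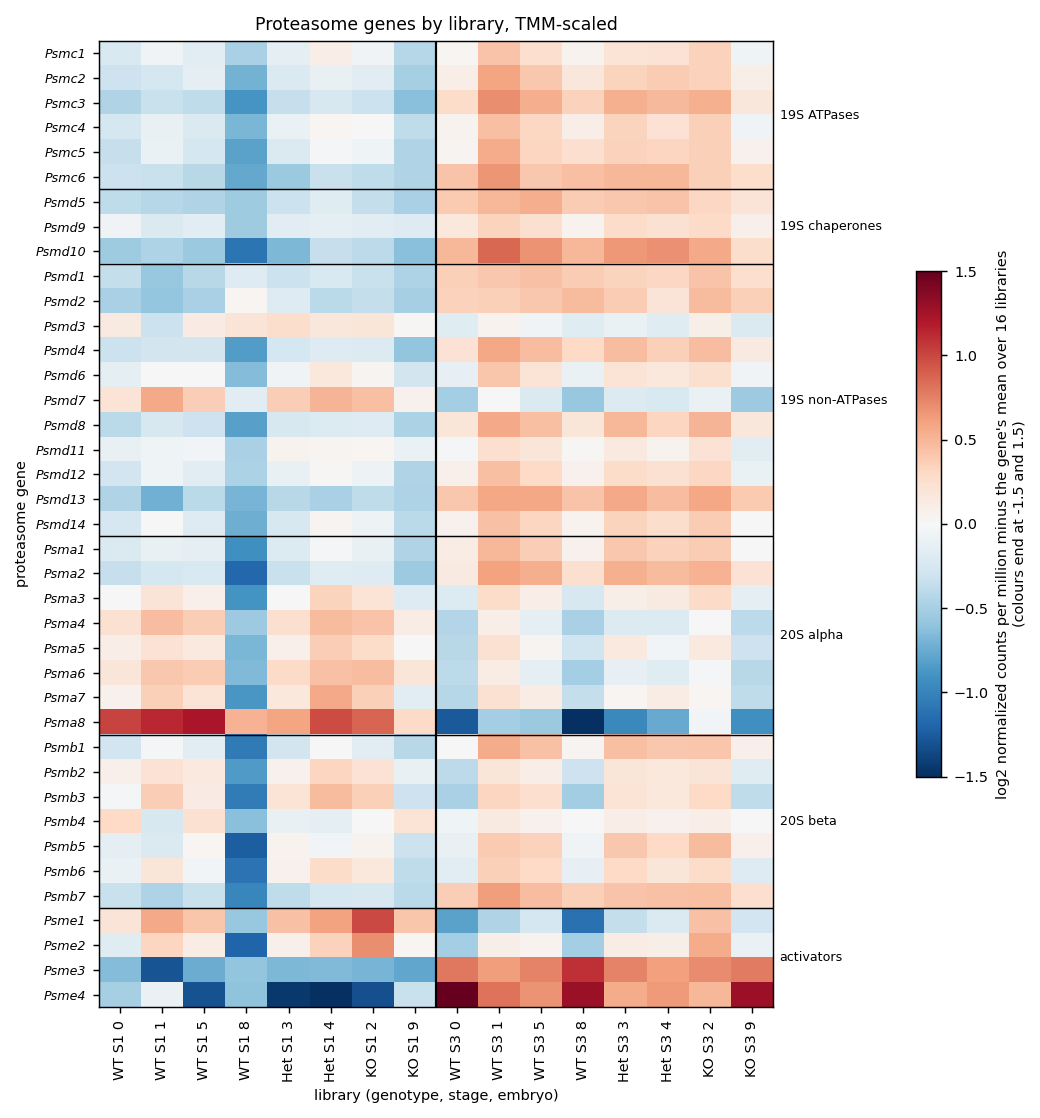
Log2 normalised CPM on the TMM scale of the 39 genes tested (rows, by role) in the 16 libraries (columns), each minus the gene's mean over all libraries. On this scale most 19S rows are higher at S3, which turns around on library totals, Psma8, Psmd7 and Psme1 are lower on both scales, and the WT S1 library of embryo 8 is low in the 20S rows.

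Among the activators, Psme3 and Psme4 had the largest rises of the proteasome genes. Psme3, which lies on the plus strand of chromosome 11 from 101206777 to 101215813 (mm39), had 414, 265, 388 and 433 normalised CPM in S1 of WT embryos 0, 1, 5 and 8. It had 1127, 1003, 1095 and 1390 in their S3 libraries. Every S3 library was thus far above every S1 library, and each embryo showed the same direction. The log2 fold change was 1.62 (standard error, SE, 0.15, edgeR adjusted p = 2.86e-07), and on library totals it was 0.65 (edgeR adjusted p = 0.00173).

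Psme4, on the plus strand of chromosome 11 from 30721725 to 30830376, was much less abundant. Its WT values were 22.3, 29.5, 12.8 and 20.8 normalised CPM at S1 and 97.4, 55.8, 50.6 and 77.5 at S3. The stages did not overlap, and the S3 libraries of the male embryos 0 and 8 were above those of the female embryos 1 and 5. The log2 fold change was 1.72 (SE 0.29, edgeR adjusted p = 9.83e-05), and on library totals 0.77 (edgeR adjusted p = 0.0351).

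Psme1 went the other way. This gene, on the plus strand of chromosome 14 from 55815190 to 55822034, had 136, 177, 158 and 79.9 normalised CPM at S1 and 68.1, 87.0, 99.3 and 54.7 at S3 in WT embryos 0, 1, 5 and 8. Each embryo was lower at S3, and only the S1 library of embryo 8 fell within the S3 range. The log2 fold change was -0.83 (SE 0.25, edgeR adjusted p = 0.00815), and on library totals -1.78. Psme2, its partner in the heteromer, lies close by on the opposite strand from 55824895 to 55829173 and had 134, 190, 165 and 66.3 at S1 and 107, 162, 158 and 107 at S3. These values overlapped and the log2 fold change was -0.05 (SE 0.28, edgeR adjusted p = 0.871), while on library totals it was -0.996 (edgeR adjusted p = 0.00173). Psme1 shares exon bases with Emc9 and Psme2 with Rnf31, and reads over both genes of such a pair were not counted.

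The balance of the activators within a library needed no scaling. The length-scaled level of Psme3 was 2.28, 1.12, 1.84 and 4.06 times that of Psme1 in S1 of WT embryos 0, 1, 5 and 8. At S3 it was 12.4, 8.64, 8.26 and 19 times that of Psme1. In Het the ratio was 1.72 and 1.89 at S1 and 7.30 and 8.84 at S3. In KO it was 1.27 and 1.80 at S1 and 4.93 and 8.6 at S3. All S3 libraries were therefore above all S1 libraries, with KO embryo 2 the lowest at S3.

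**Figure D3:**
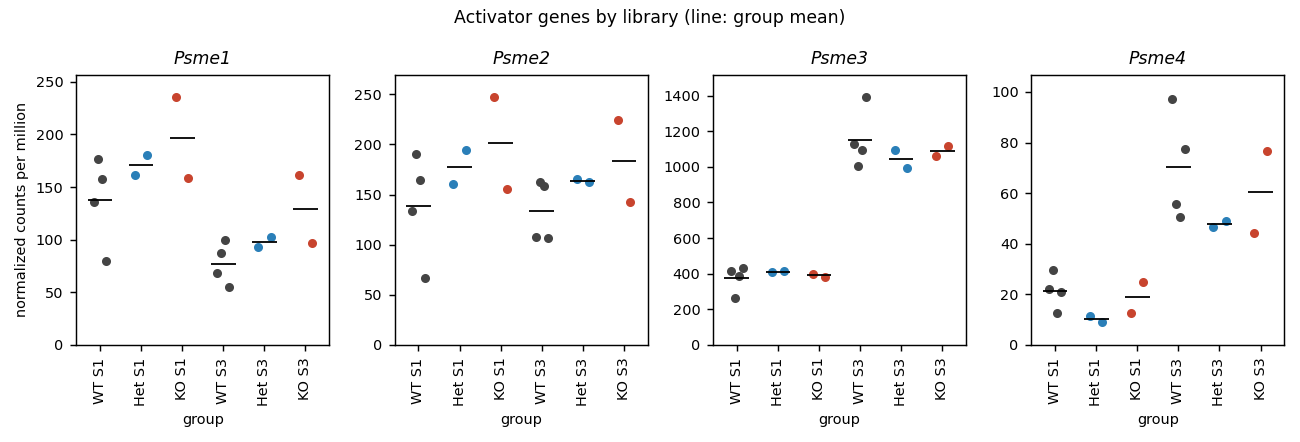
Normalised CPM (TMM scale) of the 4 activator genes in each library, by genotype and stage, with the group mean as a line. Psme3 and Psme4 are higher in every S3 library than in every S1 library, whereas Psme1 is lower at S3 in each embryo and Psme2 overlaps between the stages.

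The stretches just before the starts of these genes are shown because Psme3, Psme4 and Psmd10 rose and Psme1 fell on both scales. None is shown for Psma8 and Psmd7, which also fell on both. The stretches are the 250 bases before the start in RefSeq's promoter table (GRCm38.p6), with capitals for matches, on either strand, to CCAAT (the letters bound by NF-Y) or CCGGAA (a core of ETS family sites).
Psme3, chr11:101315963-101316212, plus strand: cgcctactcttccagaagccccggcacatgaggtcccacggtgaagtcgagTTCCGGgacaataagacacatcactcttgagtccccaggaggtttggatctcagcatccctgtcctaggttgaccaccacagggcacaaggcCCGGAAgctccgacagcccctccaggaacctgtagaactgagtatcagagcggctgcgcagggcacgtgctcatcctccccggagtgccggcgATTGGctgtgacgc
Psme4, chr11:30771525-30771774, plus strand: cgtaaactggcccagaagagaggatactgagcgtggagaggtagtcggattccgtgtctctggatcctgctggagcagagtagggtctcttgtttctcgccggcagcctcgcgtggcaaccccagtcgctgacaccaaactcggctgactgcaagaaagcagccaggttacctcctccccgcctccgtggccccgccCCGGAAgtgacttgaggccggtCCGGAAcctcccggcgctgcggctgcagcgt
Psmd10, chrX:140956712-140956961, minus strand: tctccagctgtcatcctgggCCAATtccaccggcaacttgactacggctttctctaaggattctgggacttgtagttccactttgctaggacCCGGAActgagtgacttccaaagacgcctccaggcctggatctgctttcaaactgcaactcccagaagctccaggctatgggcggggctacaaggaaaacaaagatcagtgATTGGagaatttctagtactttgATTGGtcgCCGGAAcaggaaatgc
Psme1, chr14:55578244-55578493, plus strand: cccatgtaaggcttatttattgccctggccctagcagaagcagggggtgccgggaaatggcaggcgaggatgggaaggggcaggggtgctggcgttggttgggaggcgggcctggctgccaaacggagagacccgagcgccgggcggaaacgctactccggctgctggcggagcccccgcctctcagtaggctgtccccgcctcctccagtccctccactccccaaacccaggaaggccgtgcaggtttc
The first 3 stretches each hold 2 matches to CCGGAA, and Psme3 also holds 1 and Psmd10 3 matches to CCAAT. The Psme1 stretch holds neither. It holds no match to the pattern of interferon-stimulated response elements (GAAA, 2 bases of any kind, GAAA), but the reverse complement TTTCGCTTTC begins at base 10 after the start.

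Over the full windows of 300 bases, which run to 50 bases after the start, 33 of the 40 genes matched with 36 windows. CCGGAA was found in 18 of these 36 windows (50%), against 14.9% of all 32851 windows in the table and 28.7% of the 11818 windows of genes tested in WT. CCAAT was in 36.1%, against 37.4% of all windows and 38.8% of those of genes tested. TGACNNNGC, the antioxidant response element through which Nfe2l1 and Nfe2l2 are known to act, was in 16.7% against 12.4% and 14.5%, namely in Psmb5, Psmb6, Psmc6, Psmd9, Psmd12 and Psme4. GCATGCGC, the core of NRF1 sites, was in 5.56% against 2.71% and 5.32%. The interferon-stimulated pattern, added after the data were seen, was in 11.1% against 3.44% and 3.05%, namely in Psme1, Psmb3, Psmd4 and Psmd9. These are matches of letters only.

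All 6 ATPases of the 19S base rose on the TMM scale, with log2 fold changes of 0.42 (Psmc1), 0.54 (Psmc4), 0.66 (Psmc5), 0.67 (Psmc2), 0.94 (Psmc6) and 0.97 (Psmc3), while on library totals Psmc1, Psmc2, Psmc4 and Psmc5 fell and Psmc3 and Psmc6 did not pass the test. The 3 chaperones that assemble this base also rose, with 0.44 for Psmd9, which fell on library totals, 0.90 for Psmd5, which did not pass the test there, and 1.29 for Psmd10. Psmd10, known as gankyrin, lies on the minus strand of chromosome X from 139847687 to 139857477. It had 75.9, 79.5, 74.7 and 51.5 normalised CPM in S1 of WT embryos 0, 1, 5 and 8 and 156, 200, 176 and 155 at S3. The stages were well apart in WT (SE of the log2 fold change 0.15, edgeR adjusted p = 2.83e-06), and on library totals the log2 fold change was 0.33 (edgeR adjusted p = 0.0233). Psmd10 shares exon bases with Atg4a.

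The ATPase with the largest value, Psmc3, had 359, 390, 377 and 265 normalised CPM at S1 and 593, 796, 714 and 621 at S3 in WT embryos 0, 1, 5 and 8. Psmc6 had 276, 274, 259 and 202 at S1 and 465, 544, 457 and 473 at S3. In both every S3 library was above every S1 library, and the S1 library of embryo 8 was the lowest. The chaperone Psmd5 varied least among the S1 libraries of WT (243 to 272), and its S3 libraries lay between 460 and 514. Psmc3 shares exon bases with Slc39a13 and Psmd5 with Cutal.

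Of the 11 other subunits of the cap, 7 rose and 1 fell on the TMM scale, and on library totals Psmd12 and Psmd14 of these 7 fell. The scaffold subunits Psmd1 and Psmd2 had log2 fold changes of 0.77 and 0.75, the ubiquitin receptor Psmd4 0.81, Psmd8 0.78, Psmd12 0.47 and Psmd13 1.06. Psmd13, a subunit of the lid, had 209, 173, 215 and 177 normalised CPM at S1 and 377, 428, 427 and 385 at S3 in WT embryos 0, 1, 5 and 8, so that its stages stood well apart. It shares exon bases with Sirt3 and Cox8b. Psmd14, the metalloprotease that cuts ubiquitin chains off the substrate, had 379, 451, 394 and 271 normalised CPM at S1 and 472, 614, 564 and 469 at S3. Its stages just failed to overlap, with a log2 fold change of 0.50 (SE 0.16, edgeR adjusted p = 0.0122), but on library totals it was called lower with -0.45.

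Psmd7, the partner that Psmd14 forms a dimer with, fell. It lies on the minus strand of chromosome 8 from 108307010 to 108315121 and had 532, 681, 596 and 411 normalised CPM at S1 and 322, 460, 395 and 312 at S3 in WT embryos 0, 1, 5 and 8. Each embryo was lower at S3, although the ranges overlapped through embryos 8 and 1. The log2 fold change was -0.58 (SE 0.17, edgeR adjusted p = 0.00867), and on library totals -1.53. On the length-scaled scale Psmd7 was the fifth most abundant of the proteasome genes in WT S1, with a median of 954, and ranked 18 in WT S3, with 256. Its partner Psmd14 had medians of 524 and 297 and ranked 16 and 14. Psmd3, Psmd6 and Psmd11 did not pass the test, with -0.13, 0.30 and 0.27. With the embryo as a replicate block Psmd6 (0.30, edgeR adjusted p = 0.0268) and Psmd11 (0.28, edgeR adjusted p = 0.0289) were called higher.

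The alpha subunits were split. On the TMM scale Psma1 and Psma2 rose with log2 fold changes of 0.58 and 0.85, Psma8 fell, and Psma3, Psma4, Psma5, Psma6 and Psma7 did not pass the test, with 0.10, -0.40, -0.08, -0.34 and -0.09. On library totals all but Psma2 fell, and Psma2 did not pass the test. Psma2 had 478, 506, 515 and 267 normalised CPM at S1 and 666, 919, 884 and 716 at S3 in WT embryos 0, 1, 5 and 8, without overlap. Psma8 had 12.9, 14, 15 and 9.18 normalised CPM in WT S1 and 2.66, 4.49, 4.33 and 2.14 in WT S3, from raw counts of 412 to 588 and 31 to 113. Every WT library at S3 was below every one at S1, with a log2 fold change of -1.89 (SE 0.28, edgeR adjusted p = 2.39e-05).

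Psma4 had 351, 413, 389 and 205 normalised CPM at S1 and 222, 322, 273 and 215 at S3 in WT embryos 0, 1, 5 and 8. Psma6 had 398, 465, 458 and 223 at S1 and 269, 379, 321 and 247 at S3. In both, embryos 0, 1 and 5 were lower at S3 and embryo 8 was not, and all Het and KO embryos were lower at S3. With the embryo as a replicate block Psma4 and Psma6 were called lower too, at -0.37 and -0.31 (edgeR adjusted p = 0.018 and 0.0437). Without the S1 library of embryo 8 they were also called lower, at -0.57 and -0.53, while Psma3, Psma5 and Psma7 had -0.09, -0.24 and -0.30 and did not pass the test.

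Of the catalytic subunits, Psmb7 rose and Psmb5 and Psmb6 did not pass the test. Psmb7, with trypsin-like activity, had 97.5, 89.3, 97.2 and 62.2 normalised CPM in S1 of WT embryos 0, 1, 5 and 8 and 159, 190, 170 and 158 at S3. Those stages did not overlap, and the log2 fold change was 0.97 (SE 0.14, edgeR adjusted p = 1.93e-05), while on library totals it was 0.02 and not called. Psmb7 shares exon bases with Nek6.

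Psmb5, with chymotrypsin-like activity, had 326, 310, 367 and 152 normalised CPM at S1 and 332, 471, 455 and 346 at S3. The S1 library of embryo 5 lay above the S3 libraries of embryos 0 and 8, and the log2 fold change was 0.47 (SE 0.22, edgeR adjusted p = 0.0723). It passed the test with the replicate block, at 0.53 (edgeR adjusted p = 0.0107), and was 0.26 without the S1 library of embryo 8. Psmb6, with caspase-like activity, had 425, 518, 442 and 211 at S1 and 404, 584, 559 and 419 at S3. The ranges overlapped widely, with a log2 fold change of 0.30 (SE 0.23, edgeR adjusted p = 0.268), and 0.09 without the S1 library of embryo 8. Psmb1 rose with 0.61, and Psmb2, Psmb3 and Psmb4 did not pass the test, with -0.04, 0.00 and 0.08, and with -0.23, -0.22 and -0.07 without that library. On library totals Psmb5 (-0.47) and Psmb6 (-0.64) fell together with Psmb2, Psmb3 and Psmb4.

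**Figure D4:**
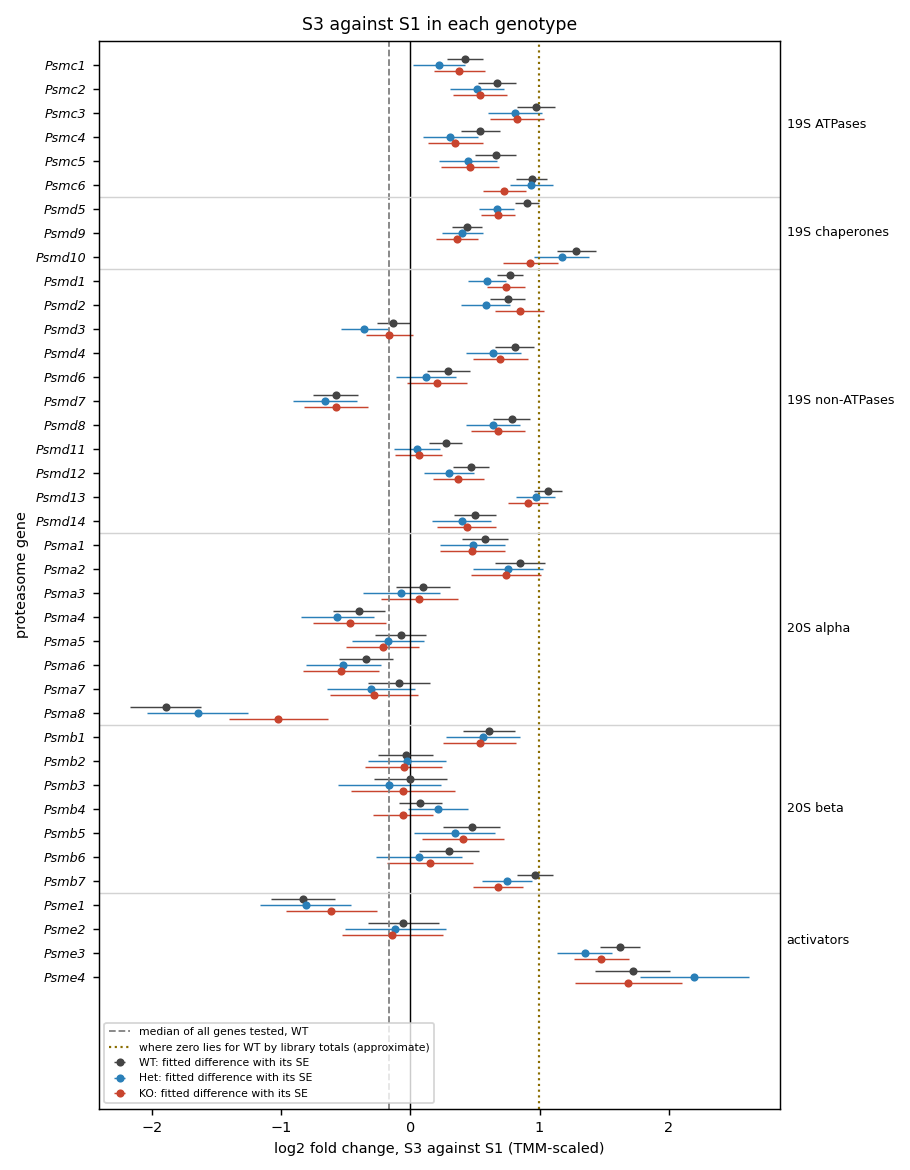
Log2 fold change of S3 against S1 with its standard error for the 39 genes tested, in WT, Het and KO, on the TMM scale. The dashed line is the WT median of all genes tested (-0.16), and the dotted line marks roughly where 0 on library totals lies for WT, so that WT points well to its left are below 0 on that scale.

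KO and Het had only 2 embryos each. In KO 14 genes rose and 1 fell on the TMM scale, where 24.9% and 32.2% of all genes did so, and the median of the 39 was 0.38 against -0.17 for all genes. On library totals 1 was called higher (Psme3) and 19 lower in KO, where 68.9% of all genes were called in either direction. In Het 15 rose and 2 fell with TMM, where 26.7% and 34.9% of all genes did so, and on library totals 1 was called higher (Psme4) and 21 lower, where 70.7% of all genes were called in either direction. With the replicate block 25 genes were called higher in WT, 21 in KO and 19 in Het, where 33.3%, 26.9% and 29% of all genes were. It called 5 lower in each, namely Psmd7, Psma4, Psma6, Psma8 and Psme1, where 40.4%, 34.8% and 37.1% of all genes were. Psme3 rose by 1.48 in KO and 1.35 in Het, and Psme4 by 1.69 and 2.20. The median by role was highest in the chaperones in WT, KO and Het (0.90, 0.68 and 0.67 with TMM) and lowest in the alpha subunits (-0.08, -0.25 and -0.24), and on library totals all medians are lower. Without the S1 library of WT embryo 8 these medians were 0.87 and -0.27 in WT.

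Psma8 fell by 1.02 in KO and 1.65 in Het against 1.89 in WT. The difference between KO and WT was 0.87 (SE 0.47, edgeR adjusted p = 1.00 for the interaction). Over all 39 genes, 0 passed the interaction test, where 0.00746% of all genes did, and 0 had an unadjusted p under 0.05, where 493 of all 13402 genes did. DESeq2 also called 0. The interaction was below 0 for 36 of the 39, with a median of -0.10 against -0.01 over all genes. Without the S1 library of WT embryo 8 the median was 0.01 and 17 were below 0, and on library totals 14 were below 0.

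No proteasome gene was called between KO and WT at S3. The test called 0.424% of all 11804 genes higher and 0.0847% lower there, and 0 of the 39 in either direction, as DESeq2 did. Over the 39 genes the log2 fold change had a median of 0.02 against 0.00 for all genes, 36 of them were within 0.25 of 0, and their standard errors ran from 0.11 to 0.37. The 3 genes beyond 0.25 were Psme1, Psma8 and Psme2. The KO embryos gave medians of opposite sign, since without embryo 2 the median was -0.13 and 7 of the 39 were above the all-gene median, and without embryo 9 it was 0.18 and 34 were above. The largest falls, of Psme4 and Psmd10, were -0.17 each and did not pass the test. The sign of Psme4 changed when single embryos were left out, as given in the last section.

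Psme1 was the single gene of the 39 with an unadjusted p under 0.05 at S3, where 1014 of all 11804 genes had one. It had 161 and 97.2 normalised CPM in KO embryos 2 and 9 and 68.1, 87.0, 99.3 and 54.7 in WT embryos 0, 1, 5 and 8. The female KO embryo 2 was above all WT libraries, and the male KO embryo 9 was just below the highest of them, the female embryo 5. The log2 fold change was 0.79 (SE 0.25), and edgeR's adjusted p was 0.334. Psme2 had 224 and 142 in KO and 107, 162, 158 and 107 in WT, with 0.50 (SE 0.23, edgeR adjusted p = 0.599). Once sex was added as a covariate, both passed, Psme1 at 0.77 (edgeR adjusted p = 0.00309) and Psme2 at 0.49 (edgeR adjusted p = 0.00633), and they were the 2 genes of the 39 called there, where 2.17% of all genes were called higher.

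Psma8 was at 6.23 and 3.37 normalised CPM in KO and 2.66, 4.49, 4.33 and 2.14 in WT at S3. The groups overlapped, with a log2 fold change of 0.53 (SE 0.37, edgeR adjusted p = 0.801). Psmb5 had 497 and 377 in KO, Psmb6 553 and 398, Psmb7 169 and 146, and Psmd14 586 and 453. In each of these the KO values reached into the WT range.

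Among interferon regulators of Psme1, Psme2 and the immunoproteasome genes, Irf7 and Irf9 rose in KO at S3. Irf7 had 486 and 217 normalised CPM in KO and 30.4 to 94.5 in WT (log2 fold change 2.80, edgeR adjusted p = 0.0482), and Irf9 295 and 270 against 81.9 to 157 (1.38, edgeR adjusted p = 0.0466). KO embryo 2 was the higher of the pair in both, as it was for Psme1 and Psme2. The same order was found in most of the 39 genes, with Psmb5 at 497 and 377 and Psmd14 at 586 and 453, but not in Psme3 and Psme4. The immunoproteasome genes were not called. Psmb8 had 0.801 and 1.23 in KO against 0.758 to 1.72 in WT, Psmb9 1.17 and 0.588 against 0.345 to 0.935, and Psmb10 14.5 and 8.39 against 5.31 to 9.77. These groups overlapped (edgeR adjusted p from 0.669 to 0.949). Summed macrophage markers were 29.6 and 16.5 CPM in KO S3 and 30.3 to 67.5 in WT S3 (14 and 13 of 15 markers were detected in KO, and 14 or 15 in WT, with Cd163 at 0 in both KO libraries), and their part in these values was not tested.

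At S1, 0 of the 39 genes were called between KO and WT, where 0.00712% of all genes were, and 0 had an unadjusted p under 0.05, where 360 of all 14039 genes did. DESeq2 called 0 as well. Psme2 and Psme1 had the largest positive values, 0.56 and 0.54 (SE 0.37 and 0.30). Psme1 had 236 and 159 normalised CPM in KO and 136, 177, 158 and 79.9 in WT, and Psme2 248 and 156 in KO and 134, 190, 165 and 66.3 in WT. In both, KO embryo 2 was above every WT library and KO embryo 9 was among them. The lowest values were those of Psma8 (-0.37) and Psme4 (-0.16), neither of which passed the test. Of the 39 genes 35 were above 0, with a median of 0.11, but without WT embryo 8 the median was -0.02. It was -0.05 without KO embryo 2 and 0.21 without KO embryo 9.

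**Figure D5:**
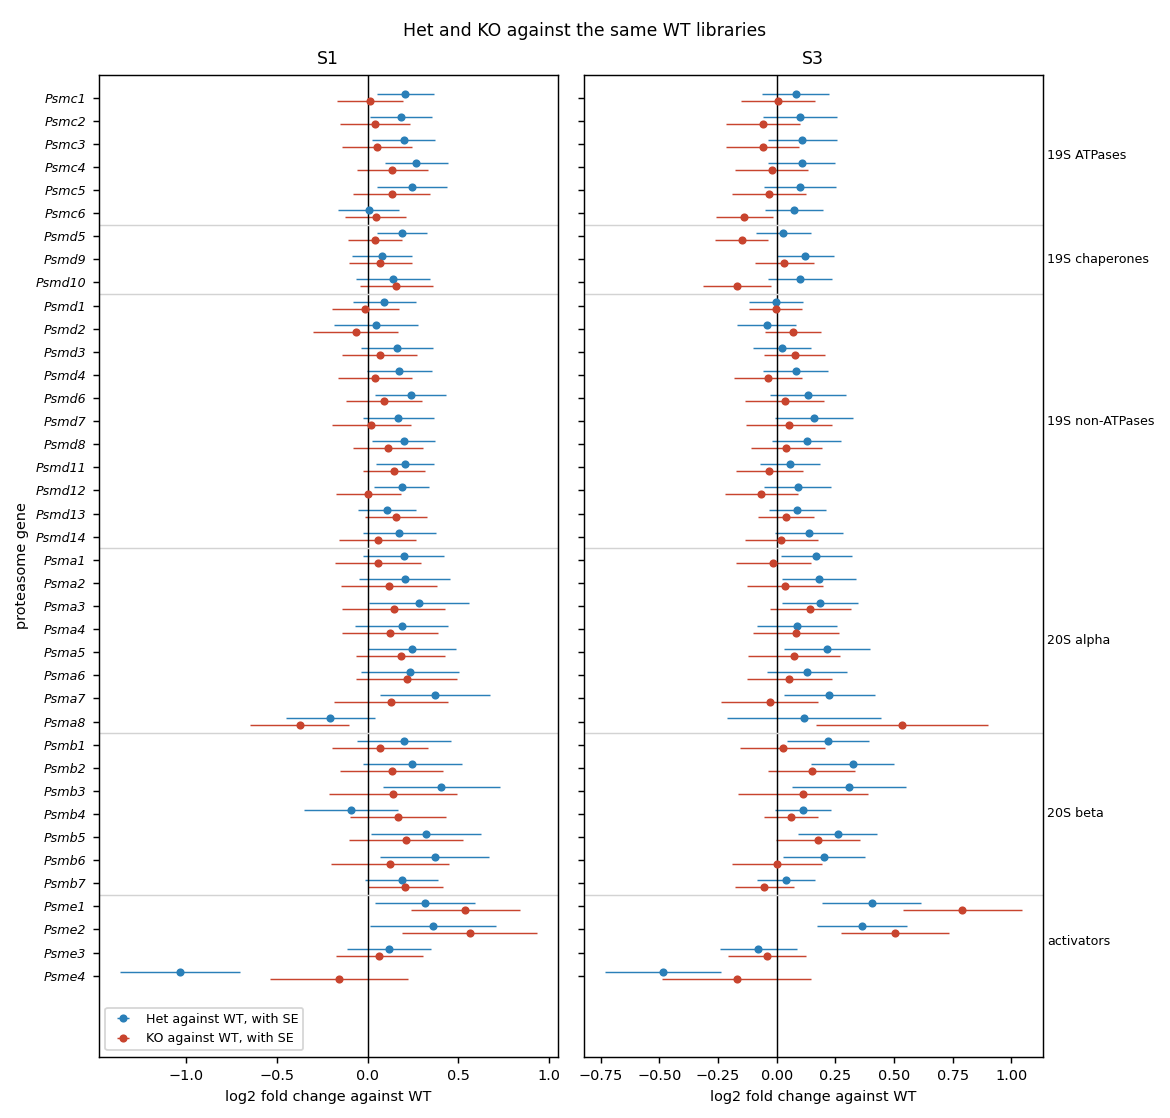
Log2 fold change against WT with its standard error for the 39 genes tested, Het and KO, at S1 (left) and S3 (right). Both genotypes are set against the same WT libraries, no gene passed the test, and Psme1 in KO at S3 has the largest positive value (0.79).

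Het was compared with the same 4 WT libraries, so that the 2 sets of values share their controls. At both stages the test called 0 of the 39 genes and 0% of all genes in Het, and DESeq2 called 0 of the 39. At an unadjusted p under 0.05 it gave 368 of all genes at S3 and 580 at S1, and of the 39 genes 0 and 1. That gene was Psme4 at S1, with 11.6 and 9.22 normalised CPM in Het embryos 3 and 4 and 12.8 to 29.5 in WT. Both Het libraries were below all WT libraries, with a log2 fold change of -1.03 (SE 0.33, edgeR adjusted p = 0.907). At S3 Psme4 had 46.6 and 49.1 in Het and 50.6 to 97.4 in WT, with -0.48 (edgeR adjusted p = 0.918). Most of the other genes lay slightly above WT in Het. At S3, 35 of the 39 were above 0, with a median of 0.11 against -0.007 for all genes. At S1, 36 were above 0, with a median of 0.20 against -0.001. Without WT embryo 8 the medians of the 39 were 0.08 at S3 and 0.11 at S1.

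Fitted with sex as a term, 15 of the 39 genes were called higher in Het at S3, where 10.4% of all genes were, and 1 lower, where 7.29% were. The 15 were Psma1, Psma2, Psma3, Psma5, Psma6 and Psma7, Psmb1, Psmb2, Psmb3, Psmb5 and Psmb6, Psmd6 and Psmd7, and Psme1 and Psme2, from 0.35 (Psmd6) to 0.74 (Psmb3). The gene called lower was Psme4 with -0.81. In that fit the 2 male Het embryos are in effect set against the male WT embryos 0 and 8. These 2 had the lowest summed 20S levels of the S3 libraries, 4290 and 3926 length-scaled CPM, where the female WT embryos 1 and 5 had 5306 and 4905 and Het 4862 and 5094. In KO the female embryo 2 had 5758 and the male embryo 9 had 4758. The effect of sex in that fit rests on 2 WT embryos of each sex.

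Other genes of the pathway moved at S3 in WT in both directions. The immunoproteasome genes fell with log2 fold changes of -3.58 for Psmb10, -2.53 for Psmb8 and -2.45 for Psmb9. Psmb10 had 91.0, 136, 111 and 40.7 normalised CPM at S1 and 6.59, 9.77, 9.73 and 5.31 at S3. Psmb8 had 3.75, 13.7, 10.7 and 1.34 at S1, and Psmb9 1.87, 5.78, 5.19 and 0.596. Within the libraries, the length-scaled level of Psmb10 was 131% to 306% of that of Psmb7, the subunit it replaces, in WT S1 and 6.74% to 11.5% in WT S3. In all 3 the S1 library of embryo 8 was lowest and that of embryo 0 next, as were their summed neutrophil markers (175 and 264 CPM, against 1769 and 1451 in embryos 1 and 5), whose part in the difference was not tested. In KO and Het S1 the order was the reverse. KO embryo 9 had a sum of 2316 against 2016 in embryo 2, but 79.1 normalised CPM of Psmb10 against 123. Het embryo 3 had 2002 against 1939 in embryo 4, but 118 of Psmb10 against 132, and Psmb8 and Psmb9 went the same way as Psmb10. Most of the sum was Mpo, and the marker Ly6g was at 0 in every library.

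Of 6 tested genes of core assembly and inhibition, 4 fell and 1 rose, where 38.8% of all genes fell and 30.9% rose. The largest falls were those of the assembly chaperones Psmg1 (-2.70) and Psmg3 (-1.33), Pomp had -0.24 and did not pass the test, and the inhibitor Psmf1 rose by 1.29. Among 8 associated proteins and subunits with other names, 4 rose and 1 fell, against the same shares of all genes, with Sem1, a small subunit of the lid, at 0.96, the deubiquitinase Usp14 at 0.89 and Ecpas, which holds cap and core together, at -0.54. Akirin2, which takes proteasomes into the nucleus, rose by 1.40, and its importin Ipo9 had -0.10.

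The polymeric ubiquitin gene Ubb rose (2.07), and the activating enzyme Uba6 fell (-1.65). Among shuttle and segregase genes Zfand5 rose (1.71), and Ubqln4 (-1.62) and Rad23b (-1.54) fell. Of the transcriptional regulators of proteasome genes, Nfe2l1 and the protease Ddi2 that activates it had 0.46 and -0.20 and did not pass the test (edgeR adjusted p = 0.112 and 0.417), and Ngly1, which deglycosylates Nfe2l1, rose by 0.98. Of the interferon regulators Irf7 (2.44) and Irf9 (2.15) rose, and Irf1 (-2.18) and Irf8 (-2.08) fell. All of these are TMM values, and on library totals each is lower by about the shift of the all-gene median given above, which puts Sem1, Usp14 and Ngly1 near 0.

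The S1 library of WT embryo 8 differed from the other 3 WT S1 libraries across the family. Of the 39 genes it was below all 3 in 33, above in 4 and within their range in 2, and all 15 tested 20S genes were below. Its difference from the others went with exon length over the 39 genes (Spearman's rho 0.56, across genes of 1 library, which are not independent). Over the 39 genes the log2 fold change of S3 against S1 in WT also went with exon length (rho 0.40), where it hardly did over all genes tested (rho -0.09). Between KO and WT the rho over the 39 genes was -0.37 at S3 and -0.48 at S1, and between Het and WT -0.51 and -0.48. Over all genes tested it was -0.00 and -0.21 for KO and -0.35 and -0.30 for Het. Without this library 22 genes still rose at S3 in WT on the TMM scale, all of them among the 22 called with it, and 5 fell, where 32.2% and 40.1% of all genes did so, with a median of 0.38 over the 39 genes.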

How the data were processed

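The authors sorted S1 and S3 erythroblasts, amplified the RNA and made polyA libraries. Per the labels and the study's methods, they mapped paired reads to mm39 with STAR 2.7.9 and counted them with featureCounts 1.6.4. They deposited raw counts per gene, and counting ignored strand and left out reads that mapped to several places or genes. The table holds 55416 genes, of which 54749 matched a symbol in GENCODE mouse release 39, whose lists of overlapping genes were used. It has 4 library columns that were not used here. Of the 40 genes described, 12 share exon bases with another coding gene and 4 have named pseudogenes, so their counts are uncertain. Groups, embryo numbers and sex came from the sample titles. The members and gene lists were chosen with earlier results of these data known.

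After TMM scaling, the counts were fitted in edgeR 4.0.16 (glmQLFit, then glmQLFTest) under R 4.3.3. Genes entered where the mean of their normalised counts was above 10, and p-values were adjusted over all genes tested by the Benjamini-Hochberg method (threshold 0.05). S3 was compared with S1 in each genotype, with the interaction of KO and WT, in 1 fit of all 16 libraries in 6 groups. Het and KO were compared with WT within a stage, on the libraries of those 2 genotypes. Values by library are on a TMM scale over 16 libraries. Within a stage the p-values measure the spread between embryos, shared between the genotypes compared, and KO and Het have 2 embryos each. Between stages and for the interaction the 16 libraries were treated as independent, with the spread shared over the 6 groups. Those p-values do not measure the spread between the 2 embryos of KO or Het alone. The 2 libraries of an embryo come from 1 liver. Over 13402 genes, their deviations from the group means correlated with r = 0.03, 0.31, 0.43 and 0.45 in WT embryos 0, 1, 5 and 8, 0.08 for the Het pair and 0.58 for the KO pair, and a fit with the embryo as a replicate block was an alternative.

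The genes given by library were Psmb5, Psmb6, Psmb7, Psme1 to Psme4, Psmd14, the 3 largest changes each way between stages in WT and the 2 largest each way between KO and WT at each stage. Psmc3, Psmc6, Psmd5, Psmd13, Psma2, Psma4 and Psma6 were added to these after their values were seen. Genes of other lists were named where called between genotypes, as the 2 largest changes each way, or for their role. Some genes of these lists are not reported here. Other alternatives were DESeq2 1.42.0, sex as a covariate, other scalings and filters, other sets of libraries and leaving out each embryo. Scaling by library totals and the fit without the S1 library of WT embryo 8 were added after the data were seen. The fits were tested on simulated data. Promoters are RefSeq's (GRCm38.p6).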

Additional observations from a re-analysis of the deposited data

Results flagged for a closer look

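One value stood far from the others of its group. The ratio of summed 20S to 19S levels was 0.934 in the S1 library of WT embryo 8 and 1.41 to 1.45 in the other 3 WT S1 libraries. The gap to the nearest library was 0.938 of the group's range, above Dixon's limit for 4 samples. Of 36 groups of 4 values checked in this way, 1 was past the limit, and chance alone gives about 1 in 20. The same library had the lowest summed neutrophil markers at S1 (175 CPM) and 1.00% of its counts in globin genes, where WT embryo 0 had 1.07% and embryos 1 and 5 had 0.184% and 0.290%. The part of these in the ratio was not tested.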

How the results depend on the processing

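The calls between the stages depended most on the scaling. On library totals without TMM, 3 genes were called higher and 25 lower at S3 in WT, 1 and 19 in KO and 1 and 21 in Het, and Psmb5, Psmb6 and Psmd14 took the other sign in WT (-0.47, -0.64 and -0.45). With upper-quartile scaling 1 gene was called lower in WT, 22 higher and 0 lower in KO, and 23 higher and 1 lower in Het, where 40.4% of all genes were called higher and 30.0% lower in WT, 33.8% and 23.4% in KO and 35.3% and 26.5% in Het. With the embryo as a replicate block 5 were called lower in each genotype, and 25 higher in WT, 21 in KO and 19 in Het. With the libraries of the genotype only, 0 were called lower in KO, where 30.3% of all genes were, and 7 in Het, where 42.6% were. With no low-count filter 3 were called lower in KO, where 16% of all genes were. Leaving out 1 embryo, or the S1 library of WT embryo 8, gave 3 to 5 genes called lower in WT, 9 to 18 higher and 0 to 4 lower in KO, and 6 to 18 higher and 0 to 5 lower in Het. The fewest higher calls came without an embryo of the same genotype (KO 2 or 9, Het 3), and the most calls in either direction without WT embryo 8 or its S1 library.

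Between KO and WT at S3, sex as a covariate gave 2 genes called higher in edgeR and 2 in DESeq2, and the fit with no low-count filter gave 1. Between Het and WT at S3 sex gave 15 higher and 1 lower in edgeR and 18 higher and 1 lower in DESeq2, which called 10.7% and 7.67% of all genes, and at S1 it gave 1 lower in DESeq2. The numbers of calls at the other settings, apart from fits that leave 1 embryo in a group, stayed within 1.5 times those given above.

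Psme2 between the stages in WT was 0.0164 with the replicate block, 0.0139 in DESeq2 and 0.31 with upper-quartile scaling, and ran from -0.29 to 0.0306 when 1 embryo or library was left out. Psme4 between KO and WT ran from -0.60 to 0.21 at S3 and from -0.74 to 0.26 at S1 when 1 embryo was left out. Without length scaling the genes took 1.69% of the counts in WT S1 and 1.21% in WT S3. Why these values moved was not tested. With 2 KO and 2 Het embryos, the SE of the difference between KO and WT at S3 ran from 0.11 to 0.37 on the log2 scale.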
